A study of Mus musculus with 48 samples.

Results

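Metallothionein and acute phase genes were followed across Tia1 KO and WT mice as all probe sets whose platform symbol was Mt1, Mt2, Lcn2, Saa1, Saa2, Saa3, Orm1, Orm2, Hp or Hamp. Of these 10 genes, 8 had probe sets of their own, which made 11 of the 45037 probe sets tested. Mt2 and Orm1 were not analysed here, because no probe set carried either symbol in the annotation used. A further probe set carried the symbols Pomt2 and Mt1 together and was kept apart from Mt1. Transcriptomes of liver, cerebellum, midbrain and spinal cord had been profiled on 48 Affymetrix arrays, 1 per tissue and mouse. The 12 untreated mice were 3 Tia1 KO and 3 WT mice of 6 months and 3 Tia1 KO and 3 WT mice of 3 months, all on a C57Bl/6 background, which gave 16 groups. In the KO mice a recombination at exon 4 of Tia1 removes the TIA-1 protein, an RNA-binding protein that silences mRNAs and nucleates stress granules, from every tissue, while a shortened Tia1 mRNA remains. The methods name purchased C57BL6/J mice as WT controls and homozygous matings for the KO line, whereas the series record calls the WT mice littermates, so the source of the mice and their genotype cannot be told apart. KO mice are named by the tag numbers 122970, 122972 and 122973 and WT mice by 1, 2 and 3. The labels reuse these names at both ages. Because the mice were killed for tissue removal, the names were taken to stand for different animals at the 2 ages. Age and cohort then cannot be told apart either. Within an age, a name was taken as the same mouse in all 4 tissues, which the labels do not state.

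Metallothioneins are small cysteine-rich proteins that bind zinc and copper, and their genes are switched on by metals through the transcription factor MTF1, by glucocorticoids and by inflammatory cytokines. Acute phase proteins are plasma proteins that the liver makes in larger or smaller amounts after infection or injury, mainly under interleukin-6, interleukin-1 and glucocorticoids, through STAT3, NF-kB and C/EBP factors. In mice, serum amyloid A and lipocalin 2 respond widely, whereas haptoglobin is already abundant at rest. In nervous tissue, Mt1 is an abundant astrocyte transcript and Lcn2 marks reactive glia and infiltrating neutrophils.

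Values are log2 signals as deposited by the authors after robust multi-array averaging (RMA), so a difference of 1 is a doubling of signal. Levels of different probe sets were not set against each other. Each tissue was fitted on its own with limma, a difference was called when its p, adjusted over all 45037 probe sets after Benjamini and Hochberg, was under 0.05, and signals under 5 are called dim here. Errors are SDs over 3 mice for group means and SEs of the fit for differences. These are bulk tissues, in which fewer cells of a type and less RNA per cell cannot be told apart.

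The labels were checked first. The Tia1 probe set at exon 4 was called lower in KO than in WT at both ages in the 3 nervous tissues, and in liver its KO signals of 4.56 to 5.26 lay below the WT signals of 5.31 to 5.47 at 6 months without a call. Alb and Apoa1 lay at 12.78 to 13.23 in all liver arrays and at or under 5.76 elsewhere, Pcp2 and Gabra6 were at 11.98 or more only in cerebellum, Slc6a3 at 8.33 or more only in midbrain, and Hoxc8 at 8.51 or more only in spinal cord.

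The upstream sequences of 8 of the 10 genes were in the RefSeq promoter table (GRCm38.p6), and those of the genes that the results turn on are shown, each as the 250 bases before the annotated start, 5′ to 3′, so that members with like differences in liver can be compared by eye. Capitals mark a metal response element (TGCACNC or TGCGCNC) in Mt1, a C/EBP motif (TTGCNNAA) in Saa1, Saa2, Saa3, Orm2 and Lcn2, and a STAT motif (TTCNNNGAA) in Hamp, all searched on both strands.
Mt1 (chr8:94178839-94179088, + strand): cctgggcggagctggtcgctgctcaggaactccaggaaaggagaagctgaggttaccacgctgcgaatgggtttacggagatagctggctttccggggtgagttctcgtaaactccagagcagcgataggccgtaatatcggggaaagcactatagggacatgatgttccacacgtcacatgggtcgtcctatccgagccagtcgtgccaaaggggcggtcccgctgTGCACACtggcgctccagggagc
Saa1 (chr7:46742981-46743230, - strand): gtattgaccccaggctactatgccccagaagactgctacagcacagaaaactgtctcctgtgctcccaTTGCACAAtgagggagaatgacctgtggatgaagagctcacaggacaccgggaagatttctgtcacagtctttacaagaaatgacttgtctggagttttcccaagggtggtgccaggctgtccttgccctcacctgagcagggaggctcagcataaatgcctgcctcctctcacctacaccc
Saa2 (chr7:46751583-46751832, + strand): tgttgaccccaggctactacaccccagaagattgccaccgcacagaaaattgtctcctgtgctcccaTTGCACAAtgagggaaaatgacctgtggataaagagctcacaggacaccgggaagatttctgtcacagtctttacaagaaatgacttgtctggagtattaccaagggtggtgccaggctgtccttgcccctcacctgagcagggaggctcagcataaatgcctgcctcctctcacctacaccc
Saa3 (chr7:46715677-46715926, - strand): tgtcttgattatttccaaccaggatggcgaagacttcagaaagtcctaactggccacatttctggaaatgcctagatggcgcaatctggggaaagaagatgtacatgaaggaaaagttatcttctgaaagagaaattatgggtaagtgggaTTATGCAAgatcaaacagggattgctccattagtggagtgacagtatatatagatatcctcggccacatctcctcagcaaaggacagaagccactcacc
Orm2 (chr4:63362199-63362448, + strand): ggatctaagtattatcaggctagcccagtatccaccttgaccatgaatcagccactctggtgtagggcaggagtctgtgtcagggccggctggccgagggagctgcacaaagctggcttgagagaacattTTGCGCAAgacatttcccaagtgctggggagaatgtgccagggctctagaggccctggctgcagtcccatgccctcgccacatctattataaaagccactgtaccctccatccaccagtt
Lcn2 (chr2:32387740-32387989, - strand): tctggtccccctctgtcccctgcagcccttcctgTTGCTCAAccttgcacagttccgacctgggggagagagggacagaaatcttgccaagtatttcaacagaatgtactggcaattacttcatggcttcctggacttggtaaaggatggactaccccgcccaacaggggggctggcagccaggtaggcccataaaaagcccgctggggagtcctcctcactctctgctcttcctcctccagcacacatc
Hamp (chr7:30944030-30944279, - strand): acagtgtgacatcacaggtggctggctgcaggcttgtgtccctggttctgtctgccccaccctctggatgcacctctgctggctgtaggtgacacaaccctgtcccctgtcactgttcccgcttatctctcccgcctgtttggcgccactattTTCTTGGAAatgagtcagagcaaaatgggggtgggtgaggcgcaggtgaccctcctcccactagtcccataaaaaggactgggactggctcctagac

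With the 50 bases after the start included, Mt1 held 3 metal response elements and Mt2 held 4, whereas 25.7% of 32851 mouse promoters of the same length held at least 1. As many as 3 occurred in 1.97% of these promoters and as many as 4 in 0.517%. Each of Saa1, Saa2, Saa3, Orm2, Lcn2 and Mt2 held 1 C/EBP motif, which 10.8% of promoters held, and Hamp held 1 STAT motif, which 8.3% held. The NF-kB consensus, present in 4.51% of promoters, had no match in the 8 member sequences. The Saa1 and Saa2 sequences were identical at 238 of 251 aligned positions (94.8%), against 132 of 263 (50.2%) for Saa1 and Saa3. A match is only a run of letters, and no binding was measured.

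Most of these genes had far higher signals in liver than in nervous tissue. In liver against spinal cord 10 of the 11 probe sets were called, and against cerebellum and midbrain all 11 were, where 85.8%, 85.1% and 85.7% of all probe sets were called. Saa1, Saa2, Saa3, Orm2, Hp and Hamp were higher in liver by 4.24 to 9.95 on the log2 scale. Hamp encodes hepcidin, the liver hormone that limits iron export, and its probe sets lay at 10.82 to 12.03 in liver and at 2.16 to 3.02 in the 36 nervous tissue arrays. Saa1, Saa2, Saa3 and Orm2 did not exceed 3.85 in any nervous tissue array, so their changes between KO and WT there are changes among dim signals. Mt1 (1422557_PM_s_at) ran the other way, at 10.78 in liver against 12.17 in midbrain, 12.48 in cerebellum and 12.49 in spinal cord as means of 12 mice, and was lower in liver than in each, with differences of -1.38 to -1.71. This liver mean pools unlike groups. WT livers averaged 8.79 at 6 months and 10.02 at 3 months. KO livers averaged 12.10 and 12.23, near KO midbrain at 12.33 and 12.27. Among the nervous tissues, spinal cord exceeded cerebellum in 2 probe sets (60.7% of all probe sets were called) and midbrain in 4 (41.4%), and cerebellum exceeded midbrain in 1 (55.3%). Both Lcn2 and Hp stood out in spinal cord, Lcn2 by 2.50 ± 0.37 and Hp by 1.37 ± 0.19 over cerebellum. Spinal cord and cerebellum did not differ beyond their spread in Mt1 (0.01 ± 0.10), and cerebellum and midbrain did not in Lcn2 (-0.0004 ± 0.37).

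Mt1 was upregulated in the liver of Tia1 KO mice at both ages, and this was the largest called difference between KO and WT among the members. At 6 months the KO livers had signals of 12.95, 11.36 and 12.0, against 9.04, 8.69 and 8.63 in WT livers. The lowest KO liver exceeded the highest WT liver by 2.32. The means were 12.10 ± 0.80 in KO and 8.79 ± 0.22 in WT, a 9.96-fold difference (log2 3.32 ± 0.35, adjusted p = 0.0022). At 3 months the KO livers had 12.30, 12.06 and 12.31, against 10.64, 9.61 and 9.81 in WT livers, again without overlap. This difference was 4.61-fold (log2 2.20 ± 0.35, adjusted p = 0.0251). The KO livers averaged 12.10 at 6 months against 12.23 at 3 months (log2 -0.12 ± 0.35, adjusted p = 0.93), and the WT livers averaged 8.79 at 6 months against 10.02 at 3 months (log2 -1.23 ± 0.35, adjusted p = 0.19). The difference between the KO effects of the ages, 1.11 ± 0.50, was not called (adjusted p = 0.55).

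**Figure D1:**
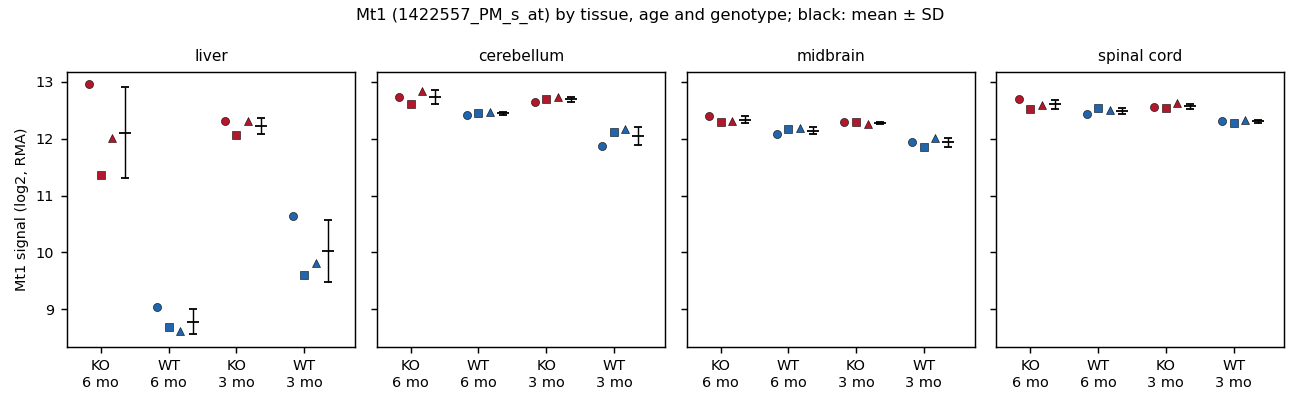
Log2 signal of Mt1 (1422557_PM_s_at) in each mouse, in panels by tissue with KO beside WT at 6 and at 3 months. Circles are mice 122970 and 1, squares 122972 and 2, triangles 122973 and 3, and black bars give the mean and SD of 3 mice. KO livers lie at 11.36 to 12.95 and WT livers at 8.63 to 10.64, while all nervous tissue signals lie between 11.86 and 12.84.

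Beside the 1 member called in liver at 6 months stands a background of 0.606% of all probe sets, and beside the 2 called at 3 months, Mt1 and Saa3, one of 0.375%. The 3-month call of Mt1 rested on both groups of that age. Its adjusted p was 0.072 to 0.110 without WT mouse 2 or 3 or without any 1 of the KO mice of 3 months, while the 6-month call held without any 1 of the 12 mice. The second Mt1 probe set (1451612_PM_at) read a weaker signal in liver. It gave 6.42, 3.77 and 4.05 in KO against 3.88, 4.12 and 3.68 in WT at 6 months, and 6.60, 4.61 and 7.08 in KO against 3.37, 4.46 and 5.03 in WT at 3 months. Only the KO mice 122970 of both ages and 122973 of 3 months stood above the WT range, and neither difference was called (adjusted p = 0.71 and 0.41). The suffix of 1422557_PM_s_at marks a probe set whose probes can also bind transcripts of related genes, so the signal may hold Mt2 besides Mt1. The probe set shared by Pomt2 and Mt1 was not called in liver, with differences of 0.20 at 6 months and 0.25 at 3 months.

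In nervous tissue the Mt1 differences were small and went in the same direction. In cerebellum at 3 months the KO signals were 12.64, 12.70 and 12.73, against 11.86, 12.11 and 12.16 in WT, a 1.56-fold upregulation (log2 0.64 ± 0.09, adjusted p = 0.0070). It was the 1 member called there, beside 0.375% of all probe sets. In midbrain at 3 months Mt1 had 12.29, 12.28 and 12.25 in KO, against 11.93, 11.86 and 12.01 in WT (1.26-fold, log2 0.34 ± 0.07, adjusted p = 0.0374), again the 1 member called, beside 0.611%. In spinal cord at 3 months the bright probe set differed by 0.26 ± 0.07 (adjusted p = 0.16). The weaker one, 1451612_PM_at, was called instead, with 5.41, 5.25 and 5.12 in KO against 4.16, 4.26 and 4.61 in WT (1.88-fold, log2 0.91 ± 0.15, adjusted p = 0.0189). It was the 1 member called there, beside 0.318% of all probe sets.

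At 6 months none of the 11 probe sets was called in spinal cord, cerebellum or midbrain with limma, where 0.127%, 0.155% and 0.229% of all probe sets were called and 3, 1 and 4 members had an unadjusted p under 0.05. The Mt1 signals of cerebellum were then 12.73, 12.60 and 12.84 in KO against 12.42, 12.45 and 12.47 in WT, without overlap, and those of midbrain were 12.40, 12.28 and 12.31 in KO against 12.07, 12.16 and 12.18 in WT. Their differences, 0.28 ± 0.09 and 0.19 ± 0.07, had adjusted p-values of 0.47 and 0.30. In spinal cord 1 KO mouse lay within the WT range, with 12.69, 12.52 and 12.59 in KO against 12.43, 12.53 and 12.51 in WT. WT Mt1 was higher at 6 than at 3 months by 0.40 in cerebellum, 0.20 in midbrain and 0.18 in spinal cord, without a call (adjusted p = 0.076, 0.15 and 0.29). The KO effect at 6 minus that at 3 months was not called for any member in the 3 tissues, beside 0.0133%, 0.0178% and 0.0222% of all probe sets in spinal cord, cerebellum and midbrain. No Mt1 call of nervous tissue remained when all 48 arrays were fitted together with limma, where the adjusted p was 0.18 in cerebellum, 0.87 in midbrain and 0.93 in spinal cord. That fit pools the spread over tissues. Group SDs of the bright Mt1 probe set reached 0.80 in liver, against 0.16 at most in nervous tissue. The pooled fit therefore cannot decide whether differences of this size in nervous tissue hold. In the fit of its own tissue, the call in cerebellum held without any 1 mouse. That in midbrain was lost without any 1 of the 6 mice of 3 months (adjusted p = 0.072 to 0.141) or without KO mouse 122973 of 6 months (0.052), and that in spinal cord without WT mouse 1 or 2 or any 1 KO mouse of 3 months (0.052 to 0.091).

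Saa3, a serum amyloid A made by macrophages, fat and other cells outside the hepatocyte as well, differed between KO and WT livers in opposite directions at the 2 ages. At 6 months the KO livers had 7.45, 7.44 and 7.48, against 6.77, 6.54 and 6.61 in WT livers. At 3 months the KO livers had 6.18, 6.18 and 6.86, against 7.98, 7.42 and 7.83 in WT livers. The groups did not overlap at either age, with KO above WT at 6 months and below it at 3 months. Saa3 was downregulated 2.53-fold in KO at 3 months (log2 -1.34 ± 0.19, adjusted p = 0.0137), and at 6 months its difference was 0.82 ± 0.19 (adjusted p = 0.097). The difference between these KO effects was called, 2.15 ± 0.27 (adjusted p = 0.0218), the 1 member called in that comparison beside 0.0333% of all probe sets. WT livers fell by 1.10 ± 0.19 at 6 against 3 months (adjusted p = 0.0349), the 1 member called there beside 0.42%, and KO livers differed by 1.05 ± 0.19 (adjusted p = 0.085), where no member was called beside 0.0466%. The 3-month call was lost without WT mouse 3 or KO mouse 122970 or 122972 of 3 months (adjusted p = 0.063 to 0.071). The called difference between the ages was lost without any 1 of WT mice 1 and 3 and KO mice 122970 and 122972 of 3 months and of the WT mice and KO mice 122972 and 122973 of 6 months (0.054 to 0.081), while its value stayed between 2.03 and 2.38. The call in WT livers of 6 against 3 months was lost without any 1 of those mice other than the KO mice of 3 months (0.058 to 0.139).

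Orm2, an orosomucoid that carries lipophilic compounds in plasma and dampens immune cells, varied widely between the liver groups and was not called in any comparison of them. At 6 months the KO livers had 9.25, 7.23 and 8.25, against 5.72, 4.02 and 6.30 in WT livers, all KO above all WT. At 3 months the KO livers had 6.15, 5.69 and 7.81, against 9.90, 7.51 and 9.75 in WT livers, with KO mouse 122973 above WT mouse 2. The differences were 2.89 ± 0.80 at 6 months (7.44-fold, adjusted p = 0.16) and -2.50 ± 0.80 at 3 months (-5.66-fold, adjusted p = 0.27). The change between the ages in WT livers was -3.70 ± 0.80 (adjusted p = 0.088), and the KO effect at 6 minus that at 3 months was 5.40 ± 1.13 (adjusted p = 0.18).

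Saa1 and Saa2, the serum amyloid A apolipoproteins of high-density lipoprotein, and Lcn2, the siderophore-binding lipocalin that withholds iron from bacteria, were higher in KO than in WT livers at 6 months without a call. Saa1 had 12.05, 10.46 and 10.86 in KO livers at 6 months, against 8.91, 9.14 and 9.71 in WT livers, and 11.38, 9.54 and 11.91 in KO livers at 3 months, against 12.04, 10.45 and 11.69 in WT livers. The groups were apart at 6 months and overlapped at 3 months, with differences of 1.87 ± 0.61 (adjusted p = 0.23) and -0.45 ± 0.61 (adjusted p = 0.86). The Saa2 probe sets differed by 1.98 ± 0.65 and 2.53 ± 0.87 at 6 months, with the groups apart, and by -0.34 ± 0.65 and -0.17 ± 0.87 at 3 months. Since Saa1 and Saa2 are near-identical genes and both Saa2 probe sets carry a suffix for cross-binding probes, these 3 probe sets are not independent readings. Lcn2 had 9.41, 5.43 and 7.0 in KO livers at 6 months, against 4.75, 4.73 and 5.50 in WT livers, so that 1 KO liver lay within the WT range (2.29 ± 1.08, adjusted p = 0.44). At 3 months it had 6.98, 5.20 and 8.36 in KO livers, against 9.08, 5.56 and 8.07 in WT livers (-0.72 ± 1.08, adjusted p = 0.88).

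**Figure D2:**
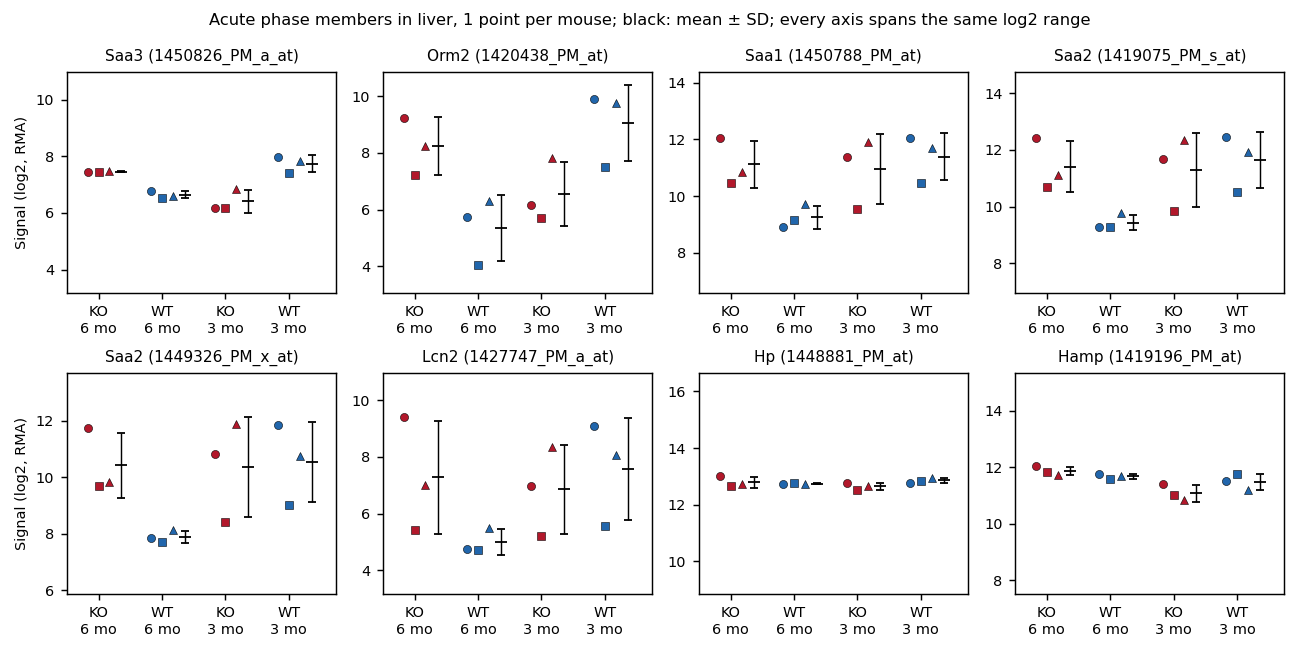
Log2 signal of the acute phase members in liver, 1 point per mouse, with KO beside WT at 6 and at 3 months and the mean and SD of 3 mice in black. WT livers of 6 months are lowest in Saa1, Saa2, Orm2 and Lcn2 as group means, while Hp and Hamp vary little on axes of the same length.

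Haptoglobin, which scavenges free haemoglobin, and hepcidin had smaller differences, none of them called. Hp had 13.01, 12.65 and 12.71 in KO livers at 6 months, against 12.73, 12.75 and 12.72 in WT livers, and 12.76, 12.50 and 12.67 in KO livers at 3 months, against 12.77, 12.85 and 12.94 in WT livers. The groups overlapped at 6 months and were just apart at 3 months, with KO below WT, and WT livers of 6 months lay below those of 3 months. The differences were 0.05 ± 0.12 at 6 months and -0.21 ± 0.12 at 3 months (adjusted p = 0.91 and 0.59). Hamp (1419196_PM_at) had 12.03, 11.82 and 11.74 in KO livers at 6 months, against 11.75, 11.57 and 11.69 in WT livers, and 11.40, 11.01 and 10.82 in KO livers at 3 months, against 11.50, 11.75 and 11.20 in WT livers. Its differences of 0.19 ± 0.17 and -0.41 ± 0.17 were not called (adjusted p = 0.73 and 0.44), nor was the higher level of KO livers at 6 than at 3 months (0.79 ± 0.17, adjusted p = 0.12). The other Hamp probe set (1419197_PM_x_at) had 12.0, 11.74 and 11.73 in KO livers at 6 months, against 11.71, 11.57 and 11.60 in WT livers, all KO above all WT by a gap of 0.017, and overlapped at 3 months. Its differences were 0.19 ± 0.17 and -0.43 ± 0.17 (adjusted p = 0.71 and 0.39). Hamp2, the second hepcidin gene of mice, was called higher in KO livers at 3 months (2.32-fold, log2 1.21 ± 0.22, adjusted p = 0.0471), while Hamp was not.

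The groups did not overlap for 7 of the 11 probe sets in KO against WT livers at 6 months, where 18.2% of all probe sets did not overlap, and all 7 were higher in KO (Mt1, Saa1, both Saa2, Saa3, Orm2 and 1 Hamp probe set). At 3 months 3 of 11 did not overlap, beside 15.8%, of which Mt1 was higher and Saa3 and Hp were lower in KO. In livers of 6 against 3 months the WT groups did not overlap for 8 of 11, beside 17.3%, all lower at 6 months (Mt1, Lcn2, Saa1, both Saa2, Saa3, Orm2 and Hp), and the KO groups for 3 of 11, beside 17.3%, all higher at 6 months (Saa3 and both Hamp). The median difference over the 11 probe sets was 1.87 at 6 months and -0.41 at 3 months for KO against WT, and -1.23 for WT livers of 6 against 3 months, where the medians over all probe sets were between 0.00005 and 0.0086. The comparisons of KO with WT at 6 months and of WT at 6 with 3 months share the WT livers of 6 months, and those of KO with WT at 3 months and of WT at 6 with 3 months share the WT livers of 3 months.

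**Figure D3:**
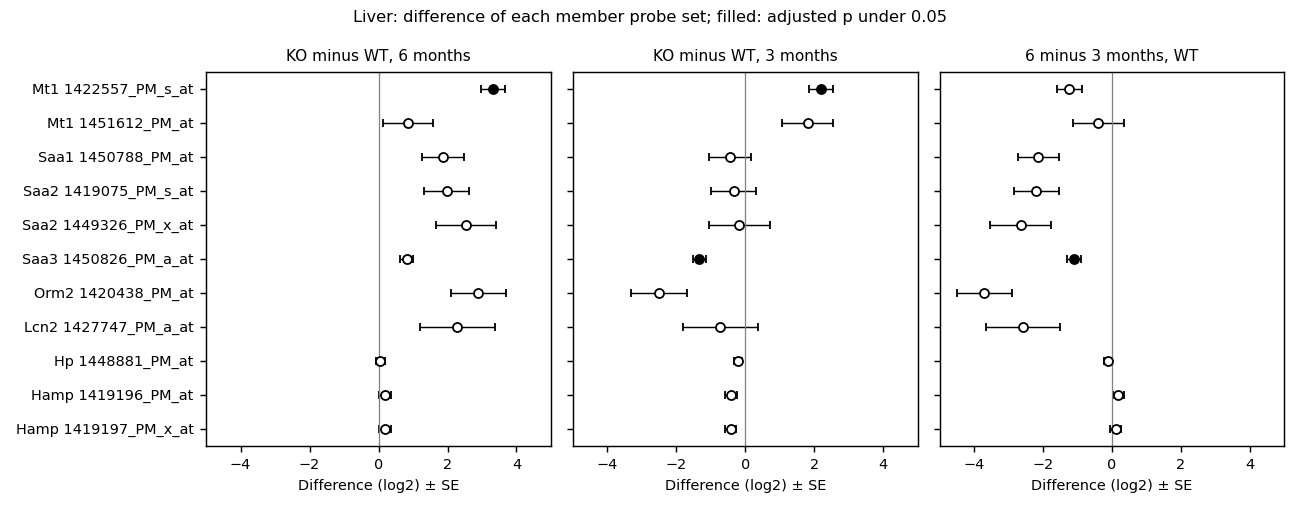
Log2 difference and SE of each of the 11 member probe sets in liver, for KO minus WT at 6 months, KO minus WT at 3 months and 6 minus 3 months in WT. Filled points have an adjusted p under 0.05, which are Mt1 at both ages, Saa3 at 3 months and Saa3 in WT. The WT livers of 6 months enter the left and right panels, and those of 3 months the middle and right ones.

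Within the liver groups, the same mice were high or low in several members. As deviations from the group means over 12 mice, Lcn2 followed Saa1 (r = 0.94, exact permutation p within groups = 0.0015, rho = 0.94 with p = 0.0015) and Orm2 (r = 0.86, p = 0.00077, rho = 0.92 with p = 0.00077 by the same exact test, the smallest it can give). With p-values adjusted over the 16 relations computed, these had 0.0082 and 0.0062 for r and for rho, and r was 0.93 and 0.81 without the 2 mice of the most extreme Lcn2. Lcn2 and Mt1 gave r = 0.81 and rho = 0.74 (exact permutation p = 0.029 and 0.044, adjusted 0.074 and 0.096, r = 0.71 without 2 mice). Lcn2 and Saa3 gave r = 0.65 and rho = 0.62 (exact permutation p = 0.056 and 0.060, adjusted 0.090 and 0.11, r = 0.68 without 2 mice). Lcn2 and Hp gave r = 0.61 and rho = 0.56 (exact permutation p = 0.16 and 0.17, adjusted 0.21 and 0.21, r = 0.53 without 2 mice). Lcn2 and Hamp gave r = -0.01 and rho = 0.01 (exact permutation p = 0.98 and 0.97, adjusted 0.98 and 0.97, r = -0.02 without 2 mice). KO mouse 122972 was lowest of its group in Saa1, Saa2, Orm2 and Lcn2 at both ages, and so was WT mouse 2 at 3 months. Of all genes that are no members, those most like Mt1 over these 12 liver deviations were Garem1 (r = 0.96), Washc3 (0.96) and Pzp (0.95), those most like Lcn2 were Apcs (0.96), Tent5b (0.95) and Ctsc (0.95), those most like Saa1 were Srpx2 (0.94), 4930500A05Rik (0.94) and Fgl1 (0.94), those most like Saa3 were Mpzl2 (0.97), Dnm1 (0.96) and Sox11 (0.94), and those most like Orm2 were Fam117a (0.96), Akain1 (0.95) and Cyp2j6 (0.94). These are the highest values of a search over all genes on 12 arrays and are given as a description. Of these genes, 4930500A05Rik, Tent5b, Sox11, Akain1, Srpx2, Dnm1 and Fam117a were dim in liver, with means of 2.63 to 4.65. The other genes named averaged 6.03 or more.

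Summed markers of other cell types also differed between the liver groups. Those of Kupffer cells and neutrophils ran in the same directions as Saa3 and Orm2. The summed linear signal of 6 Kupffer cell genes was 2890 to 4079 in KO against 2199 to 2658 in WT livers at 6 months, and 2489 to 2847 in KO against 2902 to 3432 in WT livers at 3 months. That of 7 neutrophil genes was 101 to 235 in KO against 75.7 to 97.6 in WT livers at 6 months, and 83.9 to 145 in KO against 144 to 170 in WT livers at 3 months, where the groups just overlapped. These neutrophil sums are low, as the same 7 genes summed to 54.0 to 95.1 in midbrain and to 397 to 4293 in spinal cord. None of the 6 and none of the 7 genes was called at either age with limma, and the part of these cells in the liver differences was not tested. The summed signal of 7 macrophage and microglia genes overlapped between KO and WT livers at both ages. It was 442 to 563 in KO against 392 to 467 in WT livers at 6 months. At 3 months it was 433 to 525 in KO against 484 to 543 in WT livers. That of 4 adipocyte genes was 179 to 311 in KO against 215 to 237 in WT livers at 6 months, and 356 to 768 in KO against 249 to 267 in WT livers at 3 months, again with no gene called with limma. That of 7 endothelial genes was 1464 to 1683 in KO against 1303 to 1383 in WT livers at 6 months, and 1711 to 1816 in KO against 1119 to 1690 in WT livers at 3 months, without overlap, with no gene called with limma and a median log2 difference over the 7 genes of -0.04 at 6 months and 0.22 at 3 months. Its part in the Mt1 difference was not tested. The summed signal of 6 hepatocyte genes was 38328 to 40934 in KO against 37868 to 39027 in WT at 6 months, and 37885 to 41101 in KO against 39654 to 42366 in WT at 3 months.

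In spinal cord, Lcn2 was higher in every KO mouse than in every WT mouse of its age. At 6 months it had 6.19, 5.42 and 5.28 in KO, against 4.73, 3.40 and 4.36 in WT, and at 3 months 7.59, 6.89 and 8.19 in KO, against 4.96, 5.75 and 6.33 in WT. The differences of 1.46 ± 0.41 (2.75-fold, adjusted p = 0.37) and 1.88 ± 0.41 (3.67-fold, adjusted p = 0.10) were not called. Mice of 6 months lay below those of 3 months without a call, with differences of -1.93 in KO (adjusted p = 0.21) and -1.52 in WT (adjusted p = 0.17). No member was called between the ages in spinal cord, beside 0.0311% of all probe sets in KO and 0.218% in WT, nor in cerebellum (0.0289% and 0.673%) or midbrain (0.00444% and 0.77%). Over the 11 probe sets, KO and WT did not overlap for 5 at 6 months and 5 at 3 months in spinal cord, beside 11.5% and 17.1%, for 3 and 2 in cerebellum, beside 14.1% and 14.4%, and for 6 and 6 in midbrain, beside 14.6% and 22.4%. In midbrain those were, apart from Mt1 and Lcn2, signals at or under 3.22.

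Hp in spinal cord had 6.09, 3.70 and 3.67 in KO at 6 months, against 3.47, 3.02 and 3.34 in WT, and 4.78, 4.35 and 6.41 in KO at 3 months, against 3.32, 3.32 and 4.67 in WT. KO mouse 122970 of 6 months and 122973 of 3 months stood well above the rest, and neither difference was called (1.21 ± 0.63 with adjusted p = 0.73, and 1.41 ± 0.63 with adjusted p = 0.49). The summed signal of 7 neutrophil genes in spinal cord was 617 to 972 in KO against 397 to 1084 in WT at 6 months, and 2478 to 4293 in KO against 593 to 1752 in WT at 3 months, led by S100a9 and S100a8. That of 4 adipocyte genes was 81.4 to 384 in KO against 37.9 to 124 in WT at 6 months, and 35.0 to 1122 in KO against 30.6 to 282 in WT at 3 months, highest in KO mouse 122973 and WT mouse 3. None of the 7 and none of the 4 genes was called at either age with limma. That of 6 hepatocyte genes was 53.5 to 127 in KO against 42.0 to 47.2 in WT at 6 months, and 43.8 to 88.4 in KO against 43.3 to 72.5 in WT at 3 months. Without the 2 arrays of 3 months with the most adipocyte signal the Lcn2 difference was 1.88 (adjusted p = 0.22) and the Hp difference 1.25 (adjusted p = 0.62) at that age.

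**Figure D4:**
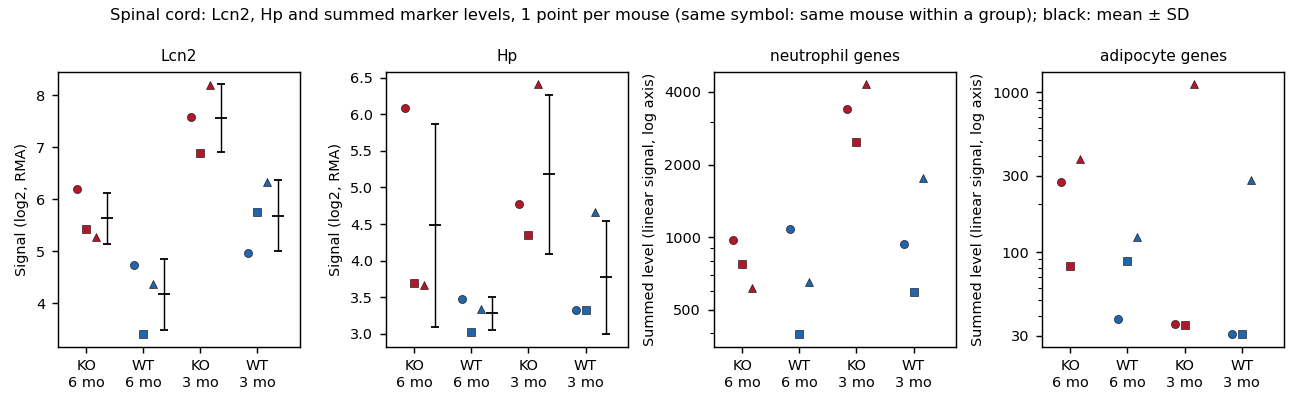
Lcn2 and Hp signals (log2) and the summed linear signals of 7 neutrophil and 4 adipocyte genes (log axes) in spinal cord, 1 point per mouse, KO beside WT at 6 and at 3 months, with mean and SD in black for the members. The neutrophil sums of KO mice at 3 months, 2478 to 4293, exceed all others, and the Lcn2 groups are apart at both ages.

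As deviations from the group means over 12 mice, the median neutrophil signal in spinal cord gave r = 0.76 and rho = 0.85 with Lcn2 (exact permutation p = 0.037 and 0.013, adjusted 0.074 and 0.045, r = 0.63 without 2 mice) and r = 0.61 and rho = 0.75 with Hp (exact permutation p = 0.00077 for both, the smallest possible, adjusted 0.0062, r = 0.58 without 2 mice). The median adipocyte signal gave r = 0.79 and rho = 0.67 with Hp (exact permutation p = 0.037 and 0.12, adjusted 0.074 and 0.17, r = 0.66 without 2 mice) and r = 0.58 and rho = 0.54 with Lcn2 (exact permutation p = 0.092 and 0.11, adjusted 0.13 and 0.17, r = 0.32 without 2 mice). The part of these cells in the Lcn2 and Hp differences was not tested.

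Lcn2 of the other nervous tissues was dim, yet its order among mice recurred. In cerebellum it had 3.86, 3.01 and 2.87 in KO at 6 months, against 2.57, 2.88 and 2.50 in WT, and 4.29, 2.80 and 4.19 in KO at 3 months, against 2.62, 3.16 and 4.27 in WT. In midbrain it had 3.92, 2.83 and 2.78 in KO at 6 months, against 2.62, 2.66 and 2.69 in WT, and 4.24, 2.63 and 4.43 in KO at 3 months, against 2.67, 3.34 and 4.23 in WT. The same mice were high in both tissues, KO 122970 at both ages, KO 122973 at 3 months and WT 3 at 3 months. Over the 12 mice the deviations of cerebellum and midbrain gave r = 0.97 and rho = 0.97 (exact permutation p = 0.013 and 0.015, adjusted 0.042 and 0.045, r = 0.96 without 2 mice). Those of spinal cord gave r = 0.80 and rho = 0.73 with midbrain (exact permutation p = 0.0054 and 0.017, adjusted 0.022 and 0.045, r = 0.87 without 2 mice) and r = 0.69 and rho = 0.66 with cerebellum (exact permutation p = 0.042 and 0.048, adjusted 0.075 and 0.096, r = 0.81 without 2 mice). Liver gave r = 0.53, 0.45 and 0.38 with midbrain, cerebellum and spinal cord and rho = 0.59, 0.52 and 0.41 (exact permutation p of r = 0.20, 0.26 and 0.29, adjusted 0.25, 0.30 and 0.31, exact p of rho = 0.14, 0.20 and 0.24, adjusted 0.19, 0.23 and 0.26, and r = 0.41, 0.32 and 0.71 without 2 mice).

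**Figure D5:**
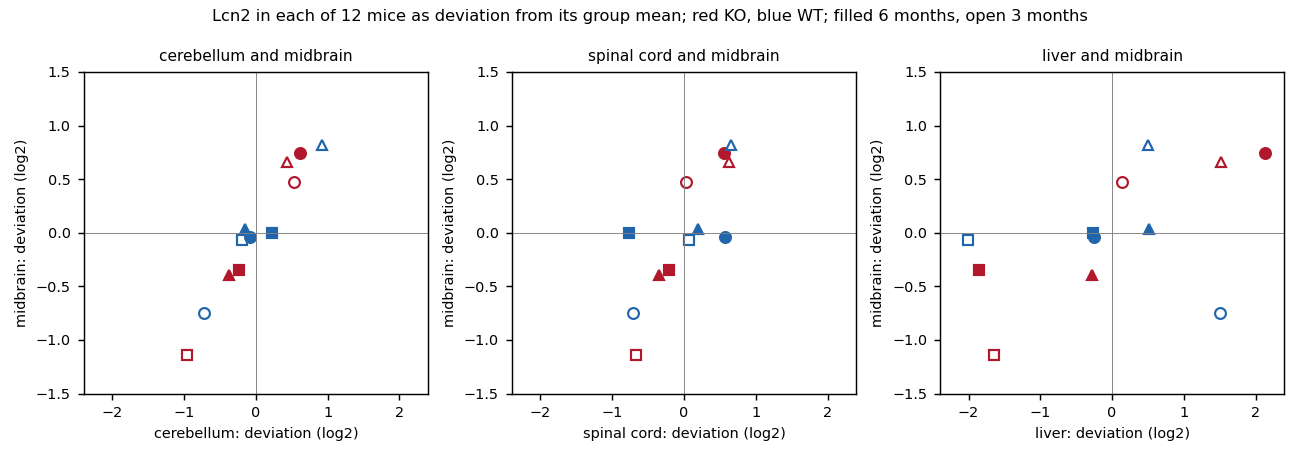
Lcn2 in each of 12 mice as the log2 deviation from its group mean, with midbrain on the vertical axes and cerebellum, spinal cord or liver on the horizontal ones. Red marks KO and blue WT, filled 6 months and open 3 months. The points run close to a line for cerebellum (r = 0.97) and spread widely for liver (r = 0.53).

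Of 19 other positive acute phase genes none was called in KO against WT in any tissue at either age with limma, beside 0.127% to 0.611% of all probe sets. Their median difference in liver was 0.31 at 6 months and -0.05 at 3 months, and at both ages the largest difference was that of Orm3, another orosomucoid gene, in the same directions as Orm2. Orm3 averaged 5.0 in KO against 3.40 in WT livers at 6 months and 2.89 in KO against 5.62 in WT livers at 3 months (1.60 ± 0.76 and -2.73 ± 0.76, adjusted p = 0.44 and 0.20). Serpina3n, a protease inhibitor, differed by 0.88 ± 0.26 at 6 months and by 0.49 ± 0.26 at 3 months (adjusted p = 0.19 and 0.56). None of 7 negative acute phase genes was called. Of 10 other metallothionein and zinc handling genes, Slc39a14, a zinc and iron importer that inflammation induces in liver, was called at 6 months in liver (10.26 in KO against 9.53 in WT, 1.65-fold, log2 0.72 ± 0.14, adjusted p = 0.0480), beside 0.606% of all probe sets. The list had no other call between KO and WT. Slc30a10, a metal exporter, came near Slc39a14 with 0.71 ± 0.15 (adjusted p = 0.057), and Mtf1 itself, the metal sensor of the Mt1 promoter, differed by -0.32 ± 0.17 at 3 months (adjusted p = 0.57). Of 15 genes of hepcidin and iron control, Hamp2 in liver at 3 months was the 1 call, beside 0.375% of all probe sets there. Tfrc, the transferrin receptor, differed by -1.23 ± 0.27 in liver at 3 months without a call (adjusted p = 0.10).

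Of 19 genes of interleukin-6, interleukin-1 and STAT3 signalling, Nfkbia, the inhibitor that NF-kB itself induces, was called, in spinal cord at 3 months (9.0 in KO against 8.07 in WT, 1.91-fold, adjusted p = 0.0134), and no other, beside 0.318% of all probe sets there. In liver at 3 months Cebpd, a C/EBP factor of the acute phase, had a difference of 1.32 ± 0.28, Il1b of -1.52 ± 0.67 and Bcl3 of -0.95 ± 0.28, none called (adjusted p = 0.092, 0.45 and 0.22). Socs3, the feedback inhibitor induced by STAT3, averaged 6.35 in KO against 5.82 in WT livers at 6 months and 5.49 in KO against 6.24 in WT livers at 3 months (0.53 ± 0.22 and -0.75 ± 0.22, adjusted p = 0.37 and 0.22). Of 9 glucocorticoid-responsive genes, the calls between KO and WT at 6 months were 3 in liver, 2 in midbrain, 1 in cerebellum and 1 in spinal cord, beside 0.606%, 0.229%, 0.155% and 0.127% of all probe sets, and at 3 months 1 in liver, 3 in midbrain, 4 in cerebellum and 3 in spinal cord, beside 0.375%, 0.611%, 0.375% and 0.318%. All were higher in KO except Tsc22d3 in liver at 6 months. Cdkn1a, a cell cycle inhibitor, was called in 6 of these 8 comparisons. Sgk1, a kinase of salt and stress responses, was called at 3 months in the 3 nervous tissues, with 10.94 in KO against 9.34 in WT in spinal cord (3.02-fold, log2 1.60 ± 0.19, adjusted p = 0.0031). In liver at 6 months Fkbp5, a cochaperone of the glucocorticoid receptor, was higher (2.16-fold, adjusted p = 0.0289) and Tsc22d3, the leucine zipper GILZ, was lower (-2.01-fold, adjusted p = 0.0298), and at 3 months Zbtb16, a zinc finger repressor, was higher (3.08-fold, adjusted p = 0.0390). Cdkn1a was among the genes the study itself singled out on these arrays, so its calls are no independent evidence of a direction for this list.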

How the data were processed

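RNA of each tissue was extracted with RNeasy Midi columns, amplified with a 3' in vitro transcription kit and hybridised to HT MG-430 PM arrays. The authors summarised the probes by RMA in R 2.14.0 and deposited 1 table of log2 signals for the 48 arrays, which was used unchanged. Arrays have no read depth, so the number of mice limits the precision. Of 45141 probe sets, 104 controls were left out, and genes were named by the platform annotation (28898 probe sets had 1 symbol, 551 several and 15588 none). KO against WT, 6 against 3 months and their interaction were fitted in each tissue alone (12 arrays, 4 groups), and tissues were compared in 1 fit of 48 arrays, with lmFit and eBayes of limma 3.58.1 in R 4.3.3 (statmod 1.5.0 for blocks). The fit was tested on simulated data. The methods give 3 KO and 3 WT mice at each age.

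The members, gene lists and tests were chosen with earlier results of these data known. All members are named. Of the pathway lists, each gene's brightest probe set was used, and the genes with the largest differences, at most 4 per comparison, or with a call in liver are named, besides a few called genes of the other tissues, chosen after their values were seen. For likeness the 3 closest genes per member were taken, and those of Hp, Hamp and Saa2 are left out of the text. The 16 relations across mice were chosen after the values were seen. They use brightest probe sets or the median log2 signal of a marker list, and exact permutation within the 4 groups (1296 arrangements, two-sided). The mouse numbers are shared between the ages and were not used to pair samples in the fits given. Their consensus correlation over both ages was -0.023 to 0.030, and that of the mouse over its 4 tissues was 0.030. Values this small cannot show whether a number stands for the same mouse. The alternatives tried were other array sets, a filter on dim probe sets, renewed quantile normalization, another prior, a stricter threshold, nested F decisions, blocks and leaving out each mouse.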

Additional observations from a re-analysis of the deposited data

Results flagged for a closer look

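The effect of the KO on Saa3 in liver differed between the ages, by 2.15 ± 0.27 on the log2 scale (adjusted p = 0.0218 with limma), with all 3 KO livers above all WT livers at 6 months and below them at 3 months.

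The probe set shared by Pomt2 and Mt1 (1433644_PM_at) ran in opposite directions at the 2 ages in midbrain. At 6 months it had 5.53, 5.55 and 5.30 in KO, against 5.08, 4.98 and 5.07 in WT, and at 3 months 4.94, 4.93 and 5.26 in KO, against 5.28, 5.42 and 5.36 in WT. The difference between the ages, 0.72 ± 0.14, was not called (adjusted p = 0.11 with limma), and it is listed because all KO mice lay above all WT mice at 6 months and below them at 3 months, where 5.26 in a KO mouse and 5.28 in a WT mouse nearly touch. The probe set does not tell the genes apart.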

How the results depend on the processing

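Single probe sets were followed only where their unadjusted limma p was under 0.05 in the fit of their tissue, which makes a turn of direction unlikely. None turned its direction. In these, 1012 alternatives kept the direction and side of the threshold, 43 gained a call and 50 lost one. Only a result called in the fit of its tissue can lose a call, and most of the results followed were not called. The 50 losses therefore fall on few results, and the 1012 alternatives mostly stand for results that stayed uncalled. Counts of called members and list genes have no direction. They stayed within 1.5 times the given count in 344 cases and moved in 83. With all 48 arrays in 1 fit, which pools the spread over tissues, the members called for KO against WT were 7 in liver at 6 months, 6 in liver at 3 months and 0 in spinal cord, cerebellum and midbrain at 3 months, with 5 in KO livers and 7 in WT livers of 6 against 3 months and 8 for the difference of the KO effects in liver. That fit called 5175 of all probe sets for KO against WT in liver at 6 months and 4253 at 3 months, 4910 and 4840 between the ages in KO and WT livers and 3214 for the difference of the KO effects there, of 45037. With the 6 arrays of a tissue and age alone, 1 was called in liver at 3 months and 0 in spinal cord, cerebellum and midbrain at 3 months. Without dim probe sets, 2 were called in liver at 6 months, 2 in KO and 2 in WT livers between the ages, 1 in WT cerebellum, 1 in WT midbrain and 0 in spinal cord at 3 months. Renewed quantile normalization left 0 in midbrain at 3 months. A trended and robust prior gave 2 in liver at 6 months, 2 each in spinal cord, cerebellum and midbrain at 3 months, 1 in midbrain at 6 months, and 1 each between the ages in KO liver and in WT spinal cord, cerebellum and midbrain. At an adjusted p under 0.01, 0 were called in spinal cord, midbrain and liver at 3 months, in WT livers between the ages and for the liver interaction. Nested F decisions gave 1 in spinal cord at 6 months, 2 in spinal cord at 3 months, and 1 each between the ages in KO liver, KO spinal cord, WT spinal cord and WT cerebellum. The cause of these moves was not tested.

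Leaving out each mouse in turn gave 1 to 2 called members in liver at 6 months, 0 to 2 in liver at 3 months, 1 to 2 in cerebellum at 3 months, 0 to 1 in midbrain and in spinal cord at 3 months, 0 to 1 in KO livers and 0 to 2 in WT livers between the ages and 0 to 1 for the liver interaction. Among genes of the pathway lists, the fit of all 48 arrays called 20 in liver at 6 months, 15 in liver at 3 months, 2 in spinal cord and 1 in midbrain at 6 months and 5 in midbrain at 3 months, and the mean of all probe sets of a gene gave 0 in cerebellum and 1 in midbrain at 6 months. With the replicate block of the shared mouse numbers, the members called in KO against WT livers were 1 at 6 months and 2 at 3 months, and it changed no count of called members. Blocking on the mouse over its 4 tissues left the tissue counts at 10, 11, 11, 2, 4 and 1.

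Signals under 5 lie near the floor of the arrays, and 10 of the 11 probe sets in liver but 2 in spinal cord and 1 each in cerebellum and midbrain averaged above it. With 3 mice a group and SEs of 0.61 to 1.08 for Saa1, Saa2, Orm2 and Lcn2 in liver, differences of several fold in these genes were not called. The origin of the mice cannot be told apart from their genotype, nor their age from their cohort.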
